A study of Mus musculus with 2 samples.

Results

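The genes described here build, load and fire the DNA replication machinery or shape chromosomes: subunits of the MCM helicase and the origin recognition complex, licensing and firing factors, fork proteins, cohesin and its regulators, CTCF, Rif1, the nuclear lamina and the remodeler Hells. They were chosen as a list of 39 symbols, and the data are the rows of a table of allele-specific ATAC-seq counts that overlap their gene bodies. Of the 39 genes, 37 had a row, in 69 of 43941 windows of 50 kb, and 36 had a count. Wapl and Mcm6 had no row, and the single window of Rpa1 was at 0 in every column. The measured cells were F121-6, a female mouse embryonic stem cell line from a cross of the 129 and castaneus (CAS) strains, cultured with LIF on mitomycin-C-inactivated fibroblast feeders. ATAC-seq marks open chromatin by where a transposase inserts sequencing adapters. The table has 2 replicates of this untreated line, and each gives a count for the 129 and for the CAS allele, so the comparison is between the alleles of the same cells. No label says whether the replicates were separate cultures, so the spread between them may be technical, and a single line cannot separate strain from line.

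Before a genome can be copied, the origin recognition complex and the licensing factors Cdc6 and Cdt1 load the MCM helicase onto DNA. Kinases and firing factors later turn the loaded helicase into moving forks. Rif1 delays the firing of late origins. Cohesin, stopped by CTCF, folds chromosomes into loops, and the lamina holds late-replicating chromatin at the nuclear edge. The series concerns how timing and folding differ by allele in hybrid cells, and the proteins encoded by these genes carry out both processes.

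The promoters of these genes were searched for common sequence motifs, and no motif searched was found at every start. RefSeq promoters (GRCm38.p6, 250 bases before to 50 after each listed start) were found for 31 of the 39 genes, 37 starts in all. Rif1, Rad21, Nipbl, Mcm4, Gmnn, Gins1, Gins2 and Lmnb1 have no entry. The octamers TTTCCCGC, TTTCGCGC, TTTGCCGC and TTTGGCGC, the usual core of binding sites of E2F, the factor family that drives genes of S phase, were searched on both strands. They matched 12 of 37 starts (32.4%), against 744 of 32851 starts of all genes (2.26%). The 12 genes were Mcm3, Mcm5, Mcm6, Mcm7, Orc1, Orc3, Cdc6, Cdt1, Clspn, Hells, Pds5a and Stag1. The GC box GGGCGG, which can overlap an E2F octamer, matched 30 of 37 starts (81.1%, against 35.7% of all starts), and CCAAT matched 22 (59.5%, against 37.4%). The median number of CG dinucleotides in the 300 bases was 24.0, against 7.0 over all starts. The E2F octamers and the GC box contain CG, and the shares were not adjusted for CG content. Fewer matches came from AAGATGGCG of YY1 (1 start, Mcm5; 2.70% against 1.40%) and from the NRF1 palindrome (2 starts of Cdc7; 5.41% against 0.971%). The cyclic AMP response element TGACGTCA matched 2 starts, of Mcm5 and Orc5 (5.41% against 1.79%). A match is a description of letters in the reference genome; binding was not measured, and the 50 kb windows do not resolve a promoter.

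The bases before a listed start are printed for 4 genes with an E2F octamer, in capitals: Mcm5 (chr8:75109259-75109508, plus strand), Mcm7 (chr5:138171884-138172133, minus strand), Cdc6 (chr11:98907901-98908150, plus strand) and Hells (chr19:38930740-38930989, plus strand). The stretches of Cdc6 and Hells lie inside the gene bodies used here, which begin at 98907709 and 38930262. Those of Mcm5 and Mcm7 overlap their gene bodies in part. Mcm7 has another listed start, whose stretch (chr5:138171267-138171516) has no E2F octamer and is not printed. In Mcm5 the capitals cover a pair of overlapping matches, on opposite strands.
Mcm5: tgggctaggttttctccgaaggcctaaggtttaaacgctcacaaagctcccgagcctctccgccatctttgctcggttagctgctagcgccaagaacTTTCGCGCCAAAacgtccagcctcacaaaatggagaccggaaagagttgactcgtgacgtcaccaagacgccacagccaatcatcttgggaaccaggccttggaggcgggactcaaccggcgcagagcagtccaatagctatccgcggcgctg
Mcm7: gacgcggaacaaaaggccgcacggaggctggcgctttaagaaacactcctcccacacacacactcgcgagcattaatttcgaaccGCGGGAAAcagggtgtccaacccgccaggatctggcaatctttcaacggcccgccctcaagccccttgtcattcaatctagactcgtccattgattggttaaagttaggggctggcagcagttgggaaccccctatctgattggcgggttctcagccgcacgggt
Cdc6: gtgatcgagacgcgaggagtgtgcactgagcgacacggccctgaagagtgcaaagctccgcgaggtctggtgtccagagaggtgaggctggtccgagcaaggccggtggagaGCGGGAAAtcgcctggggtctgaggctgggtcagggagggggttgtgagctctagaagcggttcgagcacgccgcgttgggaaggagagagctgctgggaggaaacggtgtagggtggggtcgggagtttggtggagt
Hells: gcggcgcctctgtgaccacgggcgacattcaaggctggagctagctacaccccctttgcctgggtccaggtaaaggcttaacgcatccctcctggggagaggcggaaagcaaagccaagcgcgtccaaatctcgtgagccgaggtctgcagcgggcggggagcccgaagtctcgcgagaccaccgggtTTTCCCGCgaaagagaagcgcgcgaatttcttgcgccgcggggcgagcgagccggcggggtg

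The next 3 promoters lie in windows that later results turn on. They are Mcm10 (chr2:5012792-5013041, minus strand), with CCAAT in capitals, Orc5 (chr5:22550339-22550588, minus strand), with the cyclic AMP response element in capitals, and Pcna (chr2:132253181-132253430, minus strand), with the reverse complement of CCAAT in capitals. None of the 3 has an E2F octamer in the 300 bases searched.
Mcm10: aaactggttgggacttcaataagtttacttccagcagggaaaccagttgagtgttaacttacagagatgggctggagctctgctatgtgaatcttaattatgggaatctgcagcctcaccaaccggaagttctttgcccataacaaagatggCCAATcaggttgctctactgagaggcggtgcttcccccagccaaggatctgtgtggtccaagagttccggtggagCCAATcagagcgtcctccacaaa
Orc5: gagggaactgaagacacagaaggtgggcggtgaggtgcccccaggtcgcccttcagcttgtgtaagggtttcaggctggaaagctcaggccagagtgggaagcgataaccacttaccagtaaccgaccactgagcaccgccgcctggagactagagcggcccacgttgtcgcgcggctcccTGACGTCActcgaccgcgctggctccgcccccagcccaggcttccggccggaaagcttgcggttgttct
Pcna: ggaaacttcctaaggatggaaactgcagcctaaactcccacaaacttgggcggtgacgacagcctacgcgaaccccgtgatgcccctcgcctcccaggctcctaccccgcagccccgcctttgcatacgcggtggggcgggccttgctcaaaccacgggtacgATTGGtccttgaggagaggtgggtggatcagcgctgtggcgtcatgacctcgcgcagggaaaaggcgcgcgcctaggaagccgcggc

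The counts of these genes were small, and the alleles were nearly balanced. The 69 windows held 263 counts in replicate 1, of which the 129 allele had 129, and 290 in replicate 2, of which it had 139. The share of the 129 allele was 49.0% (exact Clopper-Pearson 95% interval 42.9 to 55.3%) and then 47.9% (42.1 to 53.8%), a mean of 48.5% ± 0.791 (SD, n = 2). Over all windows it was 48.8% and 49.9%. Such intervals cover counting error only; in windows with 4 or more counts the difference between the alleles varied less than a binomial would (0.481 and 0.699 of it in the windows of these genes, 0.329 and 0.468 over all windows). The column totals were 44026 to 59995 counts, and what is counted is not given in the sources used here.

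Among the 36 genes with a count, 5 were higher on 129 in both replicates and 7 higher on CAS in both. The 5 were Rad21, Hells, Gins1, Timeless and Stag1, and the 7 were Cdt1, Cdc6, Ctcf, Lmnb1, Mcm10, Smc3 and Orc2. These shares of 13.9% and 19.4% stand beside 14.5% and 15.5% of 17074 coding genes with a count. A further 4 genes, Pds5b, Pcna, Lmna and Lbr, were higher on opposite alleles in the replicates. Orc4 was equal in both, and 19 genes were equal in 1 replicate. Measured relative to the 129 share of each gene's chromosome, where equal counts no longer tie, 10 genes were higher on 129 in both replicates and 8 on CAS, beside 29.0% and 24.1% of coding genes. The counts of the alleles did not overlap for 6 genes: Rad21, Hells, Gins1 and Timeless were higher on 129 and Cdt1 and Ctcf higher on CAS, where 9.31% and 9.38% of coding genes had such a pattern. Shares this near the background are not a result about these genes.

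No gene passed a test between the alleles. edgeR's quasi-likelihood test, fitted over all 17074 genes with Benjamini-Hochberg adjustment, called 0 of the 36 at an adjusted p under 0.05 and called 0.0% of all genes in either direction. None of the 36 had an unadjusted p under 0.05, and the lowest was 0.152 (Hells). Of all 17074 genes 267 had one, a share so small that 0 among 36 genes says little. DESeq2 also called 0. Neither fit used the pairing of the alleles by replicate. With 2 replicates and without that pairing, an exact permutation test of a single gene cannot go below p = 0.333. A p that misses the threshold does not show that the alleles were alike, and directions below are descriptions of 2 libraries.

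**Figure D1:**
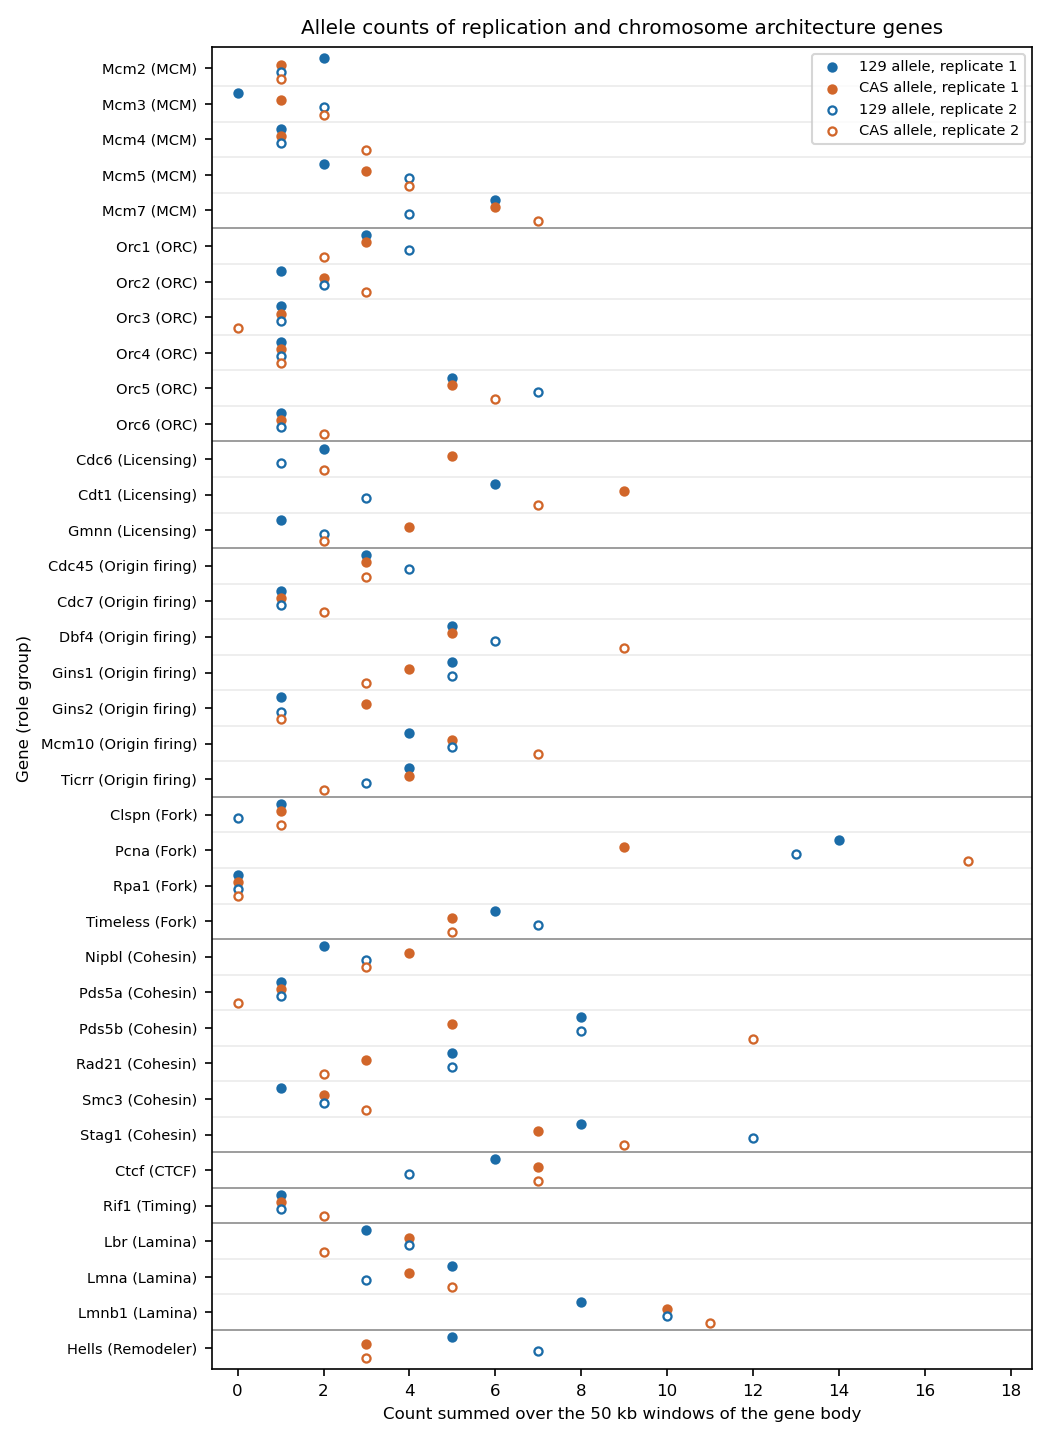
Count of each allele (horizontal axis, counts summed over the 50 kb windows of the gene body) for the 37 genes with a row, ordered by role group; filled points are replicate 1 and open points replicate 2, blue 129 and orange CAS. Pcna reaches 17 counts, while the 6 Orc genes lie between 0 and 7.

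The MCM helicase genes encode the ring that unwinds DNA ahead of the fork. No MCM gene was higher on the same allele in both replicates. Here and below, counts are given as 129 and CAS of the first replicate, then of the second. Mcm7 (chromosome 5, 138164583 to 138172111) held the most, with 6 and 6, then 4 and 7. Mcm5 (chromosome 8, 75109468 to 75128439) had 2 and 3, then 4 and 4. Mcm7 filled 15.1% of its window, which 6 other coding genes also touch, so its count is that of the window and not of the gene alone. Mcm2 had 2 and 1, then 1 and 1, Mcm3 had 0 and 1, then 2 and 2, and Mcm4 had 1 and 1, then 1 and 3. Each of the 5 genes was thus equal on the alleles in 1 replicate. Together they had a 129 share of 47.8% (26.8 to 69.4%) and 41.4% (23.5 to 61.1%), 44.6% ± 4.56 (SD, n = 2). Their chromosomes would give 48.3%, which lies within that spread.

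The origin recognition complex, which marks the sites where replication can begin, had low counts for this list. Its 6 genes covered 12 windows with a mean of 1.15 counts per window and column, against 2.00 over all windows of the list. The mean was 1.19 over all 43941 windows and 1.42 over those with a coding gene. Orc2 alone was higher on CAS in both replicates, at 1 and 2, then 2 and 3, and its alleles overlapped across replicates. Orc1 had 3 and 3, then 4 and 2. Orc4, with 1 count in each column, and Orc6, with 1 and 1, then 1 and 2, were among the emptiest. Orc3 had 1 and 1, then 1 and 0, in the single window of its 2 that the table lists. The complex had a 129 share of 48.0% (27.8 to 68.7%) and 53.3% (34.3 to 71.7%), 50.7% ± 3.77 (SD, n = 2). Counted over start windows alone it was 59.8%, and 47.2% without the start window of Orc5.

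Single windows were also compared. Of 57 windows of these genes with a count, 6 were higher on 129 in both replicates and 9 on CAS, beside 11.4% and 12.6% of 34417 windows. The alleles did not overlap in 6 and 5 of them, beside 8.14% and 8.72%. edgeR called 0 windows of the list and 0.0% of all, and DESeq2 called 0. An unadjusted p under 0.05 was found for 3 of the 57 and for 910 of all 34417 windows. With the replicate as a block it was found for 2 of the 57 and for 65 of the 34417. So few windows are not a result about these genes. The 3 were the start windows of Orc5 and Mcm10 and a window of Ctcf.

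Orc5 and Mcm10 each joined windows that leaned opposite ways, which their gene totals hide. Orc5 (chromosome 5, 22486480 to 22550338) summed to 5 and 5, then 7 and 6. The window with its start (22550001 to 22600000), whose promoter is printed above, had 4 and 1, then 5 and 1, in favour of 129 (edgeR over 34417 windows, unadjusted p = 0.0279, adjusted p = 0.999). The window at its far end (22450001 to 22500000) had 1 and 3, then 1 and 2, and the middle window had 0 and 1, then 1 and 3. So 129 was higher at the start and CAS higher along the body, in both replicates. No other coding gene touches these 3 windows, but Orc5 fills only 0.676% of the start window.

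Mcm10 (chromosome 2, 4990724 to 5012791), a scaffold needed to start the fork, showed the reverse order. Its start window (5000001 to 5050000) had 1 and 4, then 1 and 6, higher on CAS (edgeR unadjusted p = 0.0160, adjusted p = 0.999). The window after it in the direction of transcription had 3 and 1, then 4 and 1, higher on 129 (unadjusted p = 0.0858, adjusted p = 0.999). In neither window did the alleles overlap. Optn touches the first window and Ucma the second, so the counts may belong to either gene. The sum over both windows was 4 and 5, then 5 and 7. Of 15 genes of the list with 2 or more counted windows, these 2 (13.3%) had windows of opposite direction in both replicates, against 498 of 7189 coding genes (6.93%). Both differences were read from the same 4 columns, and neither window passed.

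**Figure D2:**
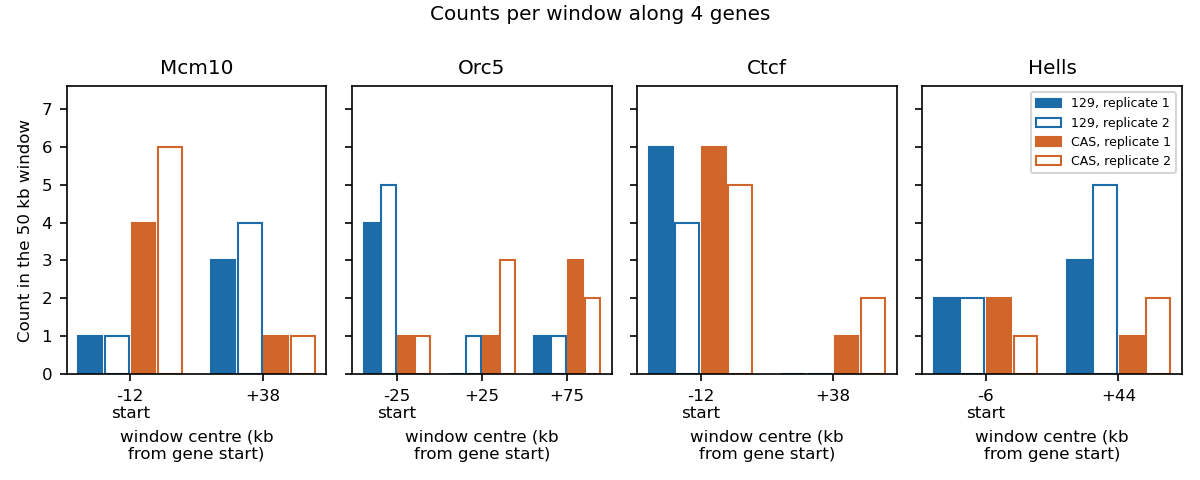
Count in each 50 kb window (vertical axis) along Mcm10, Orc5, Ctcf and Hells, by the distance of the window centre from the gene start in kb; bars are single values of 129 (blue) and CAS (orange) in replicate 1 (filled) and replicate 2 (open). The start windows of Mcm10 (1 and 4, then 1 and 6) and Orc5 (4 and 1, then 5 and 1) lean opposite ways.

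The licensing genes had the lowest 129 share of the role groups with more than 1 gene. Cdc6 and Cdt1 load the helicase, and geminin, encoded by Gmnn, blocks Cdt1 once replication has begun. Cdt1 (chromosome 8, 122568015 to 122573130) had 6 and 9 counts, then 3 and 7, a log2 ratio of 129 over CAS of -0.82 ± 0.39 (SD, n = 2). The edgeR p was 0.160 (adjusted p = 0.999). Cdc6 (chromosome 11, 98907709 to 98923942) had 2 and 5, then 1 and 2. CAS was higher in each replicate for both genes, without overlap of the alleles for Cdt1 only. Gmnn had 1 and 4, then 2 and 2. The 3 genes had a 129 share of 33.3% (16.5 to 54.0%) and 35.3% (14.2 to 61.7%), 34.3% ± 1.39 (SD, n = 2), against 45.5% expected from their chromosomes. Both intervals include 50%. These are 3 windows with 44 counts in all, and Piezo1, Aprt and Galns share the window of Cdt1.

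Cdt1 lies on chromosome 8, which as a whole favoured CAS, with a 129 share of 44.5% and 41.8%. So do Ctcf, Mcm5, Orc6 and Gins2. The 5 genes on that chromosome had a share of 41.0% (25.6 to 57.9%) and 38.2% (22.2 to 56.4%), 39.6% ± 1.97 (SD, n = 2). The intervals hold the value of the chromosome. The 31 genes with a row off chromosomes 8 and 10 had 50.2% and 48.8%. Against the level of its own chromosome, Cdt1 stayed on the CAS side in both replicates and Ctcf did not.

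The firing genes turn a loaded helicase into a fork, through the kinase of Cdc7 and Dbf4, the helicase partners Cdc45 and GINS, and Ticrr. Gins1 (chromosome 2, 150909556 to 150931280) was higher on 129, with 5 and 4 counts, then 5 and 3, and no overlap. The log2 ratio was 0.47 ± 0.26 (SD, n = 2), with an edgeR p of 0.464 (adjusted p = 0.999). Its partner Gins2 had 1 and 3, then 1 and 1. Dbf4 had 5 and 5, then 6 and 9, while its kinase Cdc7 had 1 and 1, then 1 and 2. Cdc45 had 3 and 3, then 4 and 3, and Ticrr 4 and 4, then 3 and 2. The 7 genes, Mcm10 included, were balanced, at 47.9% (33.3 to 62.8%) and 48.1% (34.0 to 62.4%).

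At the fork, Pcna, the sliding clamp that holds polymerases on DNA, had the most counts per window of the list. Pcna (chromosome 2, 132249286 to 132253180) had 14 and 9, then 13 and 17. The favoured allele thus differed between replicates, and the edgeR p was 0.887. In its start window the counts were 6 and 4, then 7 and 11, and in the neighbour, of which it fills 1.43%, 8 and 5, then 6 and 6. Timeless (chromosome 10, 128232063 to 128252941), which keeps forks intact, had 6 and 5, then 7 and 5, higher on 129 without overlap. Chromosome 10 had a 129 share of 59.8% and 55.6%, and relative to that level the log2 ratio of Timeless was -0.068 in place of 0.34. Clspn, the checkpoint adaptor claspin, had 1 and 1, then 0 and 1. Rpa1, the large subunit of the protein that coats single-stranded DNA, was listed at 0 in a window it fills to 96.4%. The fork genes had a 129 share of 58.3% (40.8 to 74.5%) and 46.5% (31.2 to 62.4%), and most of those counts were Pcna's.

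Cohesin is a ring that extrudes loops, and its genes ranged from 0.375 (Pds5a) to 3.75 (Rad21) counts per window and column. Their median of 1.5 was that of all coding genes. Rad21 (chromosome 15, 51962604 to 51993538), the subunit that closes the ring, had 5 and 3 counts, then 5 and 2. The log2 ratio was 0.89 ± 0.34 (SD, n = 2), and 129 was higher without overlap. The edgeR p was 0.191 (adjusted p = 0.999). Smc3, an arm of the same ring, went the other way, at 1 and 2, then 2 and 3. Stag1, a subunit that binds the ring, had 8 and 7, then 12 and 9, over 9 windows, of which 4 were at 0 in every column. Most of its counts lay in the windows toward its ends, with 3 and 3, then 4 and 4, in the window that holds the 5′ end of its gene body, which Slc35g2 and Gm46139 also touch. The start listed for Stag1 in the promoter table lies in the next window, which is its start window here. Nipbl, the loader, had 2 and 4, then 3 and 3, and 3 of its 5 windows were at 0. Of the regulators that hold or open the ring, Pds5b had 8 and 5, then 8 and 12, so the favoured allele differed. Pds5a had 1 and 1, then 1 and 0. The 6 genes with a row had a 129 share of 53.2% (38.1 to 67.9%) and 51.7% (38.4 to 64.8%), 52.4% ± 1.08 (SD, n = 2). Over start windows the share was 57.1%, and 51.6% without that of Rad21.

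Ctcf (chromosome 8, 105636474 to 105682922), the zinc finger protein that stops loop extrusion, had 6 and 7 counts, then 4 and 7. CAS was higher without overlap, with a log2 ratio of -0.47 ± 0.38 (SD, n = 2). The edgeR p was 0.415 (adjusted p = 0.999). Its start window held nearly all of them, at 6 and 6, then 4 and 5. The window after it had 0 and 1, then 0 and 2, which gave an unadjusted p of 0.0416 in edgeR (adjusted p = 0.999; unadjusted p = 0.166 with the replicate as a block) on 3 counts in all. Rif1, the timing factor, had 1 and 1, then 1 and 2, and its second window was at 0. Hells (chromosome 19, 38930262 to 38970470), a remodeler that supports DNA methylation, had 5 and 3, then 7 and 3. At 0.88 ± 0.32 (SD, n = 2) its log2 ratio was close to that of Rad21, again with 129 higher and no overlap. The edgeR p was 0.152 (adjusted p = 0.999). The difference lay in the window after its start, with 3 and 1, then 5 and 2, while the start window had 2 and 2, then 2 and 1. Chromosome 19 had a 129 share of 51.1% and 56.0%, below the 62.5% and 70.0% of Hells, whose intervals (24.5 to 91.5% and 34.8 to 93.3%) hold those values.

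The lamina genes had high counts and balanced alleles. Lmnb1 (chromosome 18, 56707813 to 56753424), encoding lamin B1, had 8 and 10 counts, then 10 and 11. CAS was higher in each replicate by 2 and by 1, on a chromosome with a 129 share of 44.6% and 44.8%. Relative to that level its log2 ratio was 0.075 in place of -0.22. Lmna, encoding lamins A and C, had 5 and 4, then 3 and 5, and Lbr, the lamin B receptor, had 3 and 4, then 4 and 2. In both the favoured allele differed between replicates. The share of the 3 genes was 47.1% (29.8 to 64.9%) and 48.6% (31.4 to 66.0%), 47.8% ± 1.07 (SD, n = 2).

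**Figure D3:**
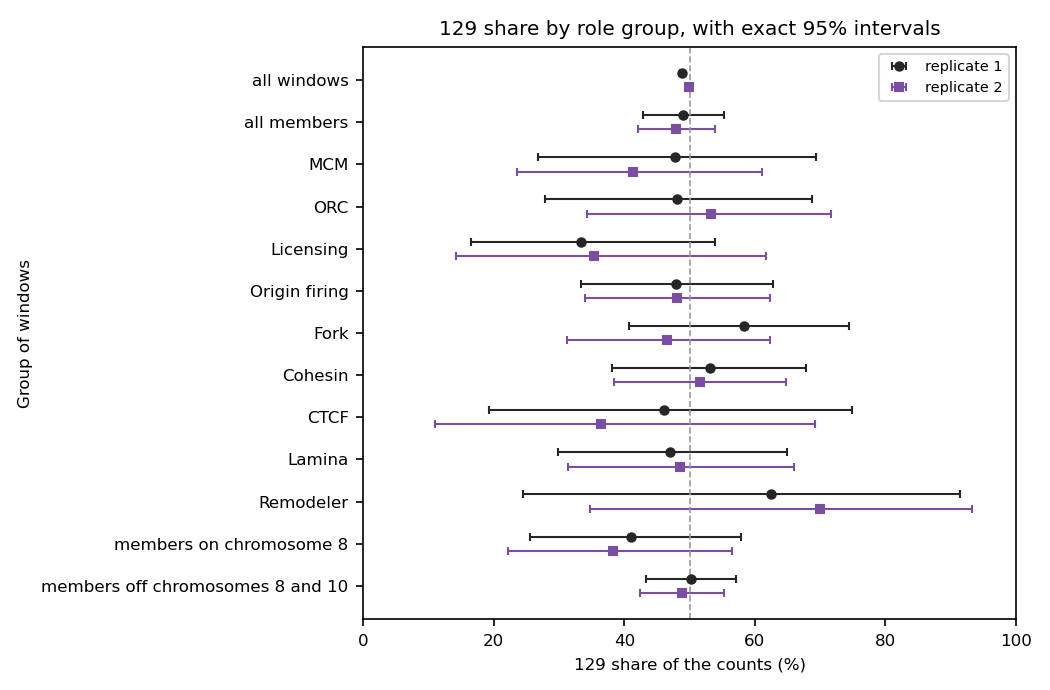
The 129 share of counts in percent (horizontal axis) by role group in replicate 1 (circles) and replicate 2 (squares), with exact 95% Clopper-Pearson intervals for counting error; Rif1, with 2 and 3 counts, is left out. The licensing genes are lowest among the groups of several genes, at 33.3% and 35.3%, with intervals that include the dashed line at 50%.

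Signal per window differed far more between genes than between alleles. Since gene bodies differ in length, it is given as the mean count per window and column. The median over the 37 genes was 2.00, against 1.5 over 18577 coding genes with a row, and 21 of 37 (56.8%) lay above that median, against 46.9% of all. The highest were Pcna (6.63), Cdt1 (6.25), Mcm7 (5.75) and Lmnb1 (4.88). The lowest were Rpa1 (0), Pds5a (0.375), Orc4 (0.50) and Nipbl (0.60). Within the MCM genes the level ran from 1.25 (Mcm2 and Mcm3) to 5.75 (Mcm7). Of the 37 genes, 30 share a window with another coding gene, so these levels describe neighbourhoods.

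**Figure D4:**
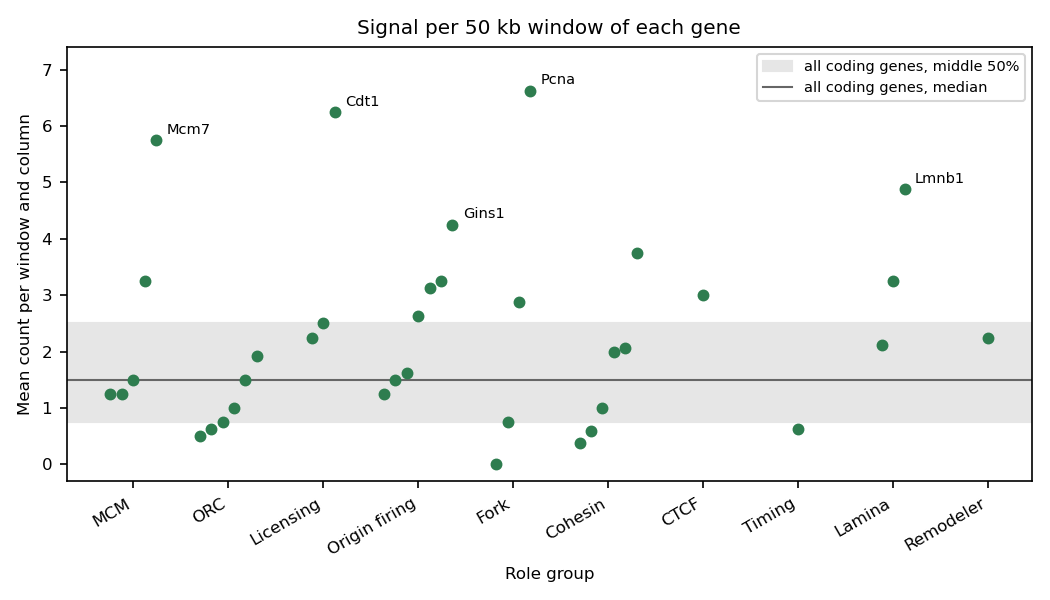
Mean count per 50 kb window and column (vertical axis) of each of the 37 genes (points) by role group; the line is the median of 18577 coding genes (1.5) and the band their middle 50%. All 3 lamina genes and all 3 licensing genes lie above the line, and 1 of 6 Orc genes does.

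The windows with a gene start held more counts than the rest. The 34 start windows of these genes had a mean of 2.46 counts per column, and their 26 other windows 1.56. Over all coding genes the values were 1.86 and 1.22. Among genes with both kinds of window, 10 of 16 (62.5%) had more in the start window, against 61.6% of 6608 coding genes. Ctcf was the clearest case, with 21 counts over the 4 columns in its start window and 3 in the other. Orc1 and Hells had fewer in the start window, with 4 against 8 and 7 against 11.

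The replicates also differed in where their counts lay. Replicate 2 had 1.33 times the counts of replicate 1 over all windows while the windows of these genes had 263 and 290 counts. In their start windows the ratio was 0.982 (169 and 166 counts), and in their other windows 1.38. All start windows of coding genes had a ratio of 1.05, and their other windows 1.25. The licensing genes were lower in replicate 2 in every case, with Cdt1 at 15 and 10, Cdc6 at 7 and 3 and Gmnn at 5 and 4 counts. Of the 36 genes, 15 (41.7%) had fewer counts in replicate 2, against 36.3% of coding genes. The part of this in the allele differences was not tested.

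Other genes of the same pathways were mostly as balanced, with more on the 129 side. Of 78 further replication, cohesin, condensin, lamina and architecture genes, 72 had a row and all 72 a count. Of these, 18 (25%) were higher on 129 in both replicates and 5 (6.94%) on CAS, beside 14.5% and 15.5% of coding genes; no list was tested as a whole. edgeR called 0. The single gene with an unadjusted p under 0.05 was Lemd3, of the inner nuclear membrane, with 2 and 0 counts, then 2 and 0, named here after its values were seen. The replication genes had 9 on 129 and 3 on CAS of 36, the cohesin and condensin genes 3 and 2 of 18, and the lamina and architecture genes 6 and 0 of 18. Mcm9, Prim1, Lmnb2 and Lemd3, all higher on 129 in both replicates, lie on chromosome 10, and without the genes of that chromosome, left out after seeing the data, 14 of 66 were higher on 129 and 5 on CAS. Relative to the chromosome, 29 of 72 (40.3%) were higher on 129 and 16 (22.2%) on CAS, beside the 29.0% and 24.1% of coding genes. The lamina and architecture genes had a 129 share of 54.6% and 52.7%, where their chromosomes would give 52.4% and 52.0%. Relative to the chromosome 7 of them were higher on 129 and 5 on CAS. The replication genes had 52.1% and 55.4%, where their chromosomes would give 49.6% and 51.0%, with 16 on 129 and 8 on CAS. For the cohesin and condensin genes the share was 52.1% and 48.8%, against 49.4% and 50.9%, with 6 on 129 and 3 on CAS.

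Among those with 10 or more counts and a shared direction, Lemd2, also of the inner nuclear membrane, led the 129 side with 8 and 4, then 6 and 3. Pole4, a subunit of polymerase epsilon, followed with 8 and 4, then 7 and 5. Ncapg2, a condensin II subunit, had 5 and 3, then 8 and 5, and Lmnb2, encoding lamin B2, 8 and 5, then 5 and 3. The lowest ratios were those of the condensin I subunit Ncaph, with 2 and 3 in each replicate, and of Pole3, with 2 and 3, then 4 and 5. Next came Tpr of the nuclear pore, already on the 129 side, with 6 and 5, then 7 and 6. None of the 7 differed by more than 4 counts in a replicate.

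Marker genes bore on the identity of the cells. All 10 stem cell markers had counts, with a mean of 5.84 per window and column. The largest totals were those of Esrrb (19 and 20, then 22 and 28, over 4 windows) and Zfp42 (17 and 18, then 25 and 23, over 2 windows). Per window and column Zfp42 was highest, at 10.4. The 10 fibroblast markers, which feeder cells express, had a mean of 1.97, against 1.42 over all windows with a coding gene. Their summed counts were 29 and 33, then 37 and 27, and those of the stem cell markers 83 and 83, then 104 and 104. The fibroblast marker with the largest total was Fn1, with 11 and 13, then 13 and 12, over 3 windows. Per window and column the highest value of that list was 4.5, in the 1 window of S100a4. Postn was at 0, and Thy1 had 1 and 0, then 1 and 0. The next lowest totals were those of Col3a1 (1 and 1, then 1 and 2) and Col1a1 (2 and 1, then 2 and 1, over 2 windows). Col1a2 had 1 and 2, then 4 and 0. The lists overlapped in level. In 1 window each, the fibroblast markers S100a4 (18 counts in all) and Vim (13) held more than the stem cell marker Klf4 (12). The part of feeder chromatin in the allele counts was not tested.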

How the data were processed

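ATAC-seq counts were deposited by the authors as whole-number counts per 50 kb window, allele and replicate, per the file headers; the counts run from 0 to 18, with no visible normalization. Bowtie2, MACS2, SAMtools, bedtools and the mm10 build appear in the submitters' processing notes, without roles. How fragments were assigned to an allele is not given in the sources used here. Rows cover chromosomes 1 to 19, with 0 further per-sample columns. Windows were assigned to every gene body (RefSeq, GRCm38.p6) sharing a base, in 1-based coordinates, and summed per gene. Differences were tested with edgeR 4.0.16 (quasi-likelihood test, TMM, column totals as library sizes, Benjamini-Hochberg adjustment, threshold 0.05) over 17074 genes and 34417 windows with a count, without a further filter. The p-values of edgeR are kept at or above those of a Poisson model. Independent Poisson counts were simulated from the row means and column totals, with changes placed only in rows above the median mean count. The smaller of these changes was already a several-fold difference between the alleles, and no slighter difference was simulated. On these counts the test recovered few of the smaller changes and most of the larger ones. The fit with the replicate as a block recovered none. The simulated alleles were not paired by replicate. The simulation therefore cannot settle what the block fit would find in paired data. Log2 ratios used a pseudocount of 0.5. Alternatives were the replicate as a block, DESeq2 1.42.0 (Wald test or size factors), 1 library size per replicate, filterByExpr with a minimum count of 10, a threshold of 0.1, start windows, flanking windows, the level of the chromosome, no chromosomes 8 and 10, a pseudocount of 1 and each replicate left out.

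Each library yields both alleles, which pairs them by replicate; their deviations from the allele means correlated at r = 0.365 over 11022 genes. Genes and lists were chosen with earlier results of these data known. Every gene of the list is named. Values are given for genes with a shared direction or an extreme signal, and by complex. Of the other pathway genes, those named have the 3 highest and 3 lowest log2 ratios (with ties) among genes with 10 or more counts and a shared direction.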

Additional observations from a re-analysis of the deposited data

How the results depend on the processing

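No gene and no window of the list passed under DESeq2 size factors, 1 library size per replicate, the DESeq2 Wald test or a threshold of 0.1. The filterByExpr filter kept 1 gene and 0 windows of the list, so its 0 calls say nothing. With the replicate as a block the count of calls was also 0. That fit recovered none of the changes put into simulated counts, but those counts were not paired by replicate. What its 0 says about stability is therefore not known. With 1 replicate left out no test could be fitted. Relative to the chromosome, 10 genes were higher on 129 in both replicates and 8 on CAS, in place of 5 and 7, and the larger count was on the other allele; 29.0% and 24.1% of coding genes had these directions. With 1 replicate alone, 9 to 12 genes were higher on 129 and 13 to 17 on CAS. The median log2 ratio over the genes was -0.23, against 0 over all coding genes. It was -0.19 over start windows, -0.061 with flanking windows, -0.095 relative to the chromosome, -0.091 without chromosomes 8 and 10, -0.21 with a pseudocount of 1 and 0 in either replicate alone. The 129 share over all genes was 47.5% over start windows and 49.5% without chromosomes 8 and 10. For the origin recognition complex the start windows gave 59.8% and for cohesin 57.1%; without Orc5 and without Rad21, left out after seeing the data, they gave 47.2% and 51.6%. The lamina share was 49.6% with flanking windows and 51.4% relative to the chromosome. Signal in start windows was 2.46 counts per column. Among single genes, the log2 ratio changed sign relative to the chromosome for 4 of 36, and with a pseudocount of 1 for 0. Depth limits every value: most genes held under 10 counts per allele and replicate.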
